A study of Macaca mulatta with 304 samples.

Results

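The genes described here are 7 myeloid C-type lectin receptors, CLEC4D, CLEC4E, CLEC6A, CLEC7A, CLEC5A, CLEC12A and CLEC4A, of the 21070 genes in the count table. They were chosen by symbol: CLEC4D because its blood level was higher after Day 90 than before irradiation in these samples, and the other 6 because they belong to the same receptor family. Their values after Day 90 are therefore a description, with no test. The tests of earlier days against control use the same controls, so those of CLEC4D are not independent of its choice. Whole blood RNA was sequenced from 28 rhesus macaques (Macaca mulatta, Chinese sub-strain, aged 3 to 5 years), 14 male and 14 female. All 28 animals received thoracic irradiation, 12 at 9.8 Gy (lower dose, LD, 6 male and 6 female) and 16 at 10.7 Gy (higher dose, HD, 8 male and 8 female), as the labels give the doses. No animal was left unirradiated. The control was the draw of Day -2 before irradiation, which 24 of the 28 animals had, so that time, handling and care cannot be told apart from irradiation. The animals received tramadol or buprenorphine between Day 4 and Day 25, and dexamethasone when they breathed fast. The samples were 24 controls, early samples of 28 animals (Day 3 to 21), 95 medium samples (Day 30 to 90, 28 animals) and 53 late samples (after Day 90, 16 animals, of which 12 LD and 4 HD). The irradiated samples numbered 151 for LD and 129 for HD, and 8 were unscheduled last draws of animals that left the study between scheduled days.

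Myeloid C-type lectin receptors sit on neutrophils, monocytes, macrophages and dendritic cells, and bind sugars and lipids of microbes and of damaged host cells. CLEC4D (MCL, also Dectin-3), CLEC4E (Mincle) and CLEC6A (Dectin-2) signal through the adaptor FCER1G, CLEC5A through TYROBP (DAP12), and CLEC7A (Dectin-1, the beta-glucan receptor) through a motif of its own. All of these converge on the kinase SYK and the adaptor CARD9, which lead to NF-kB and to cytokines such as CXCL8. CLEC4A (DCIR) and CLEC12A (MICL) are inhibitory: they carry a tail motif that recruits the phosphatase PTPN6.

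In the Mmul_10 annotation, 6 of the 7 genes lay on chromosome 11 in 2 groups. CLEC7A (chr11:9579997-9592761, plus strand) and CLEC12A (chr11:9728774-9747186, minus strand) formed the first. CLEC4E (chr11:11263940-11269758, plus strand), CLEC4D (chr11:11281953-11290714, minus strand), CLEC6A (chr11:11339495-11361755, minus strand) and CLEC4A (chr11:11382672-11403401, minus strand) formed the second. CLEC5A lay apart, at chr3:168273188-168299038 on the minus strand. A pseudogene, LOC716203, lies inside CLEC6A on the same strand, so reads of CLEC6A may be shared with it. The other 6 genes overlapped no annotated gene. CLEC4E and CLEC4D face each other with their last exons 12194 bases apart. The 250 bases before the start of each of these 2 genes are shown, 5′ to 3′ on the gene's own strand, because the levels of this pair moved together over the samples. Capitals mark matches to 4 motifs searched on both strands (PU.1 as GAGGAA, C/EBP as TTGCNNAA, NF-kB as GGG and CC with 5 bases between, AP-1 as TGANTCA) and to the TATA box (TATAAA).
CLEC4D promoter, chr11:11290715-11290964, minus strand: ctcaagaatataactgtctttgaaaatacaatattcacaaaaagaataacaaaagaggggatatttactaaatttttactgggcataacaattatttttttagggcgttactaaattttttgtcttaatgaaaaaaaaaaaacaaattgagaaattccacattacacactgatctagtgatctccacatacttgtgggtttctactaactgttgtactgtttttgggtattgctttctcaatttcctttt
CLEC4E promoter, chr11:11263690-11263939, plus strand: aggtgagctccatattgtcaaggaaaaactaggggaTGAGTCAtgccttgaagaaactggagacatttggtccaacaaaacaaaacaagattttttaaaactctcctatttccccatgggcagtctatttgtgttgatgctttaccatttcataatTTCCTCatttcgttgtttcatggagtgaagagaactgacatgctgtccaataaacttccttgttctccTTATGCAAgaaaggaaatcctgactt
The CLEC4E window held an AP-1 match of 7 bases that ended 208 bases before the start, a PU.1 match on the opposite strand at 94 to 89 bases and a C/EBP match on the opposite strand at 26 to 19 bases, and the matches did not overlap. The CLEC4D window held no match to any of the 5. Of the 7 genes, 4 held a PU.1 match, 2 a C/EBP match, 2 an AP-1 match (CLEC4E and CLEC7A), 1 an NF-kB match (CLEC4A) and 0 a TATA match. Over the windows of 20787 protein-coding genes the shares were 21.8% for PU.1, 8.05% for C/EBP, 5.15% for AP-1, 54.7% for NF-kB and 9.85% for TATA. These matches are letters only and say nothing on which factor was bound.

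The total count per sample ran from 2840219 to 23638161, with a median of 11697185 in controls, 6905391 in medium and 6935207 in late samples, so that low genes were measured less precisely later on. The sample descriptions give a library number, in 2 ranges (series A, the lower, and series B), and all other samples carry the number 0 (series C), so that series C is known only by that shared number and may be more than 1 batch. Series A held 20 of the 24 controls and 100 early samples (series B held 8 and series C 24 of the rest), but 0 medium or late samples; the remaining controls, of 4 HD animals, were of series C. Series and time after irradiation therefore cannot be told apart for most animals in the medium and late comparisons, and values within a series are given beside them. The control of B1504, an LD animal, stood apart. It had the highest level of CLEC4D, CLEC4E, CLEC7A and CLEC4A among the 24 controls (20.3, 15.5, 150.4 and 51.5 CPM). CPM here is the gene's counts scaled to the sample's effective library size, which is its total count after scaling between samples. That control also had the highest summed level of 17 neutrophil markers (16330 CPM), and results that depend on it are given without it. The leukocyte gene PTPRC was at 708 CPM or more in every sample, and the neutrophil gene CSF3R at 300.6 CPM or more. In blood, fewer cells of a type and less RNA per cell cannot be told apart.

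Before irradiation the 7 genes differed widely in level. Per kilobase of exon, the median control level was 11.1 CPM for CLEC7A, 8.00 for CLEC12A, 4.94 for CLEC4A, 2.24 for CLEC4E, 0.776 for CLEC5A, 0.357 for CLEC6A and 0.302 for CLEC4D. The ranges of neighbours in this order overlapped over the 24 animals. CLEC4D, the receptor for mycobacterial glycolipid that pairs with CLEC4E, was close to the limit of detection: its median control count was 8, with 0 in 1 animal. CLEC6A was lower still in counts and did not pass the filter (at least 3 counts in 80% of the samples), so that 6 of the 7 genes entered the tests. After Day 90, from counts summed over the draws of each of 16 animals, the medians were 28.9 CPM per kilobase for CLEC7A, 20.4 for CLEC4A, 19.9 for CLEC12A, 19.6 for CLEC4E, 6.31 for CLEC4D, 1.13 for CLEC5A and 0.797 for CLEC6A, and CLEC4D had moved from last to the fifth place.

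**Figure D1:**
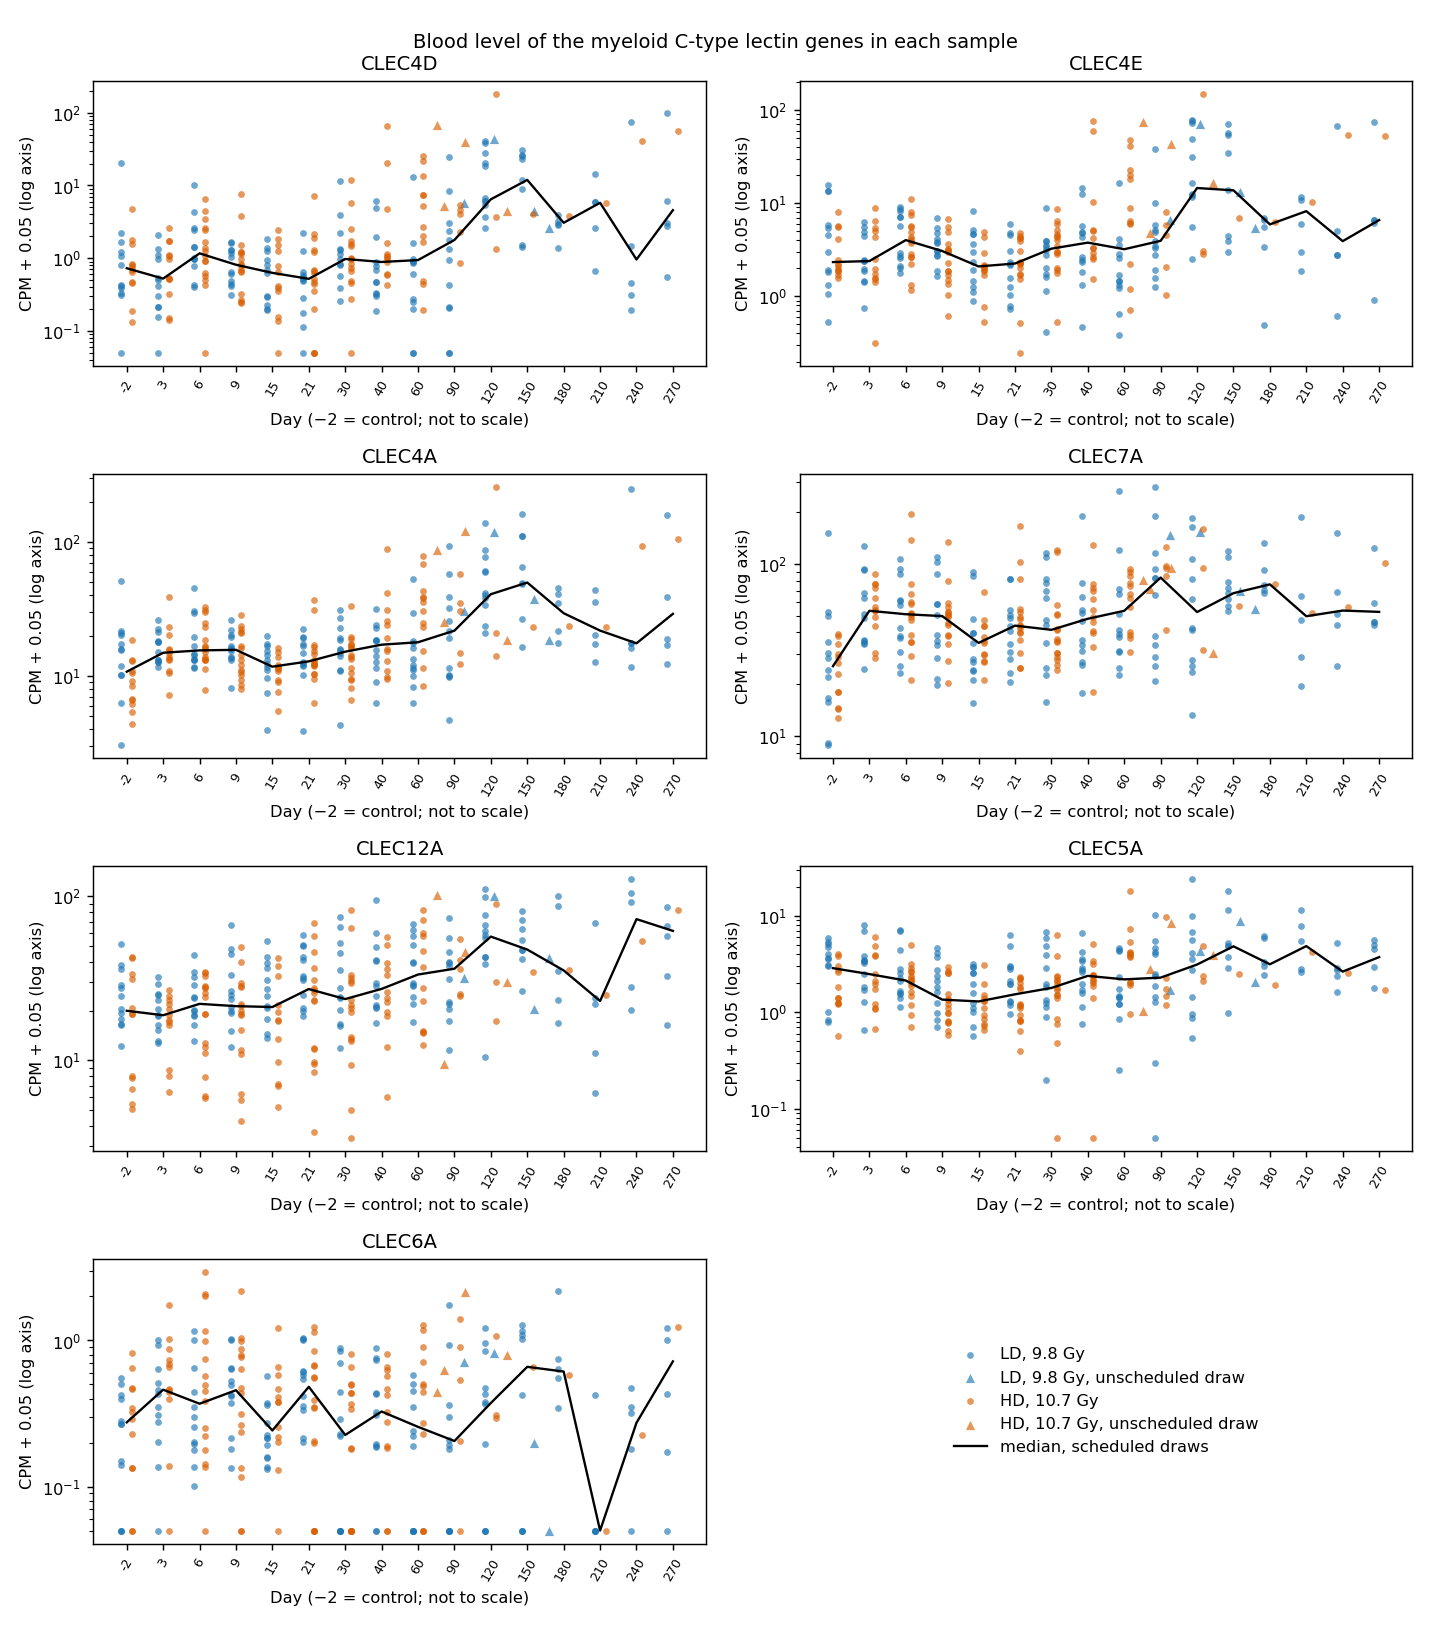
Level of each of the 7 genes (CPM + 0.05, log axis) in each sample by day, with Day -2 as the control; points are samples coloured by dose, triangles are unscheduled draws and the black line is the median of scheduled draws. To Day 90 the CLEC4D median by scheduled day runs from 0.470 CPM (Day 21) to 1.73 CPM (Day 90), against 0.677 CPM in controls. CLEC4D reaches 181.3 CPM at Day 120. CLEC7A is above its control median of 25.4 CPM on every scheduled day by the median.

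The comparison of Day 3 to 21 with the animal's own control asks what differed early after irradiation. CLEC7A was the gene of the family that rose, by 1.93-fold, and CLEC4D did not pass the test. The CLEC7A level in the 24 paired animals was 8.77 to 150.4 CPM before irradiation (median 25.4) and 26.8 to 116.3 CPM after it (median 48.8, from counts summed over an animal's draws). It was higher than the own control in 23 of 24 animals, all but B1504, and in the HD group 11 of 12 animals lay above every HD control. The log2 fold change was 0.95 (SE 0.11, adjusted p = 8.07e-08, edgeR's quasi-likelihood test, blocked by animal) and 1.02 without B1504. Among the 13751 genes tested, 7.53% passed the same call (adjusted p of at most 0.05 and at least 1.5-fold in either direction). Of the 6 receptors tested 1 did. Shares of all genes count both directions throughout. CLEC4A, the inhibitory receptor, had a log2 fold change of 0.42 (SE 0.15, adjusted p = 0.0218) but stayed under 1.5-fold. CLEC4D ran from 0 to 20.3 CPM in controls (median 0.677) and from 0.262 to 3.44 CPM early (median 0.632), with a log2 fold change of -0.02 (SE 0.31, adjusted p = 0.964). The log2 fold changes of CLEC4E (-0.20, SE 0.23), CLEC5A (-0.30, SE 0.17) and CLEC12A (0.16, SE 0.09) did not pass either. With no filter on low counts, CLEC6A had a log2 fold change of 0.90 (SE 0.28, adjusted p = 0.0129), on levels of 0 to 0.771 CPM in controls and 0.154 to 1.14 CPM early, which correspond to a few counts a sample.

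Day by day, CLEC7A was called on 8 of the 9 scheduled days to Day 90 and the other receptors on few. Its log2 fold change on Day 3, 6 and 9 was 1.10, 1.16 and 0.99. It was 0.91 on Day 21 and Day 30, then 0.95 (Day 40), 1.10 (Day 60) and 1.49 (Day 90); on Day 90, 14 of 15 animals were above their own control. On Day 15 it was 0.48 (SE 0.09, adjusted p = 7.52e-05), below 1.5-fold. CLEC5A, the TYROBP-coupled receptor, fell on Day 9 (log2 fold change -0.66, SE 0.21, adjusted p = 0.0105, edgeR) and on Day 15 (-0.74, SE 0.16, adjusted p = 0.000418), from a control median of 2.82 CPM to 1.304 and 1.25 CPM. CLEC4E fell on Day 21 (-0.66, SE 0.22, adjusted p = 0.0116, edgeR). The Day 21 samples of HD animals with a series A control were of series B or C. Series and day cannot be told apart for them, and no value within a series is given for single days. CLEC4A rose on Day 6 (0.67), Day 40 (0.66) and Day 60 (0.81), and CLEC12A on Day 60 (0.83). CLEC4D was called on 0 of these 9 days; its largest value was 1.14 on Day 60 (SE 0.47, adjusted p = 0.0851, edgeR), and its unadjusted p was under 0.05 on Day 6, Day 30 and Day 60. Of all genes tested, the share called was 11.5% (Day 3), 11.5% (Day 6), 7.58% (Day 9), 6.01% (Day 15) and 10.4% (Day 21) in the early window. It was 5.9% (Day 30), 6.92% (Day 40), 4.23% (Day 60) and 7.06% (Day 90) afterwards.

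**Figure D2:**
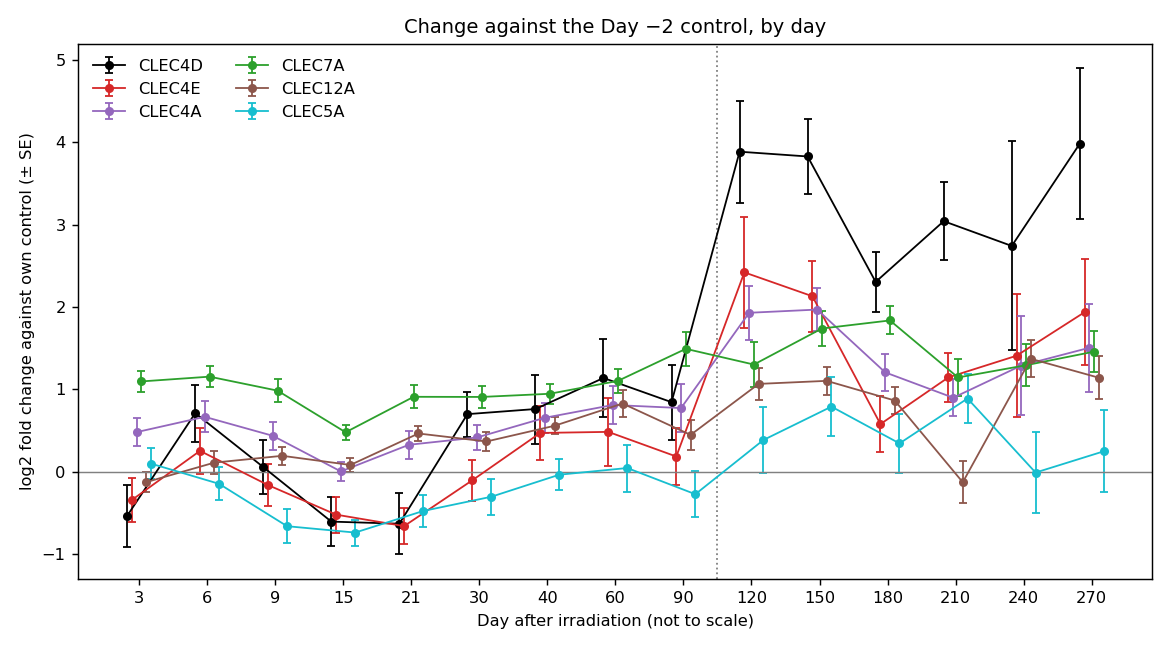
Log2 fold change against the own Day -2 control of the 6 receptors tested, by day after irradiation (not to scale); points are fits over the animals drawn on that day and bars are ± 1 SE. CLEC7A lies between 0.48 and 1.84 on every day, whereas CLEC4D lies between -0.63 and 1.14 to Day 90 and between 2.31 and 3.99 from Day 120 on, values that are a description.

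From Day 30 to 90, 4 of the 6 receptors tested rose against the own control in 24 animals: CLEC4D, CLEC4E, CLEC7A and CLEC4A. Over all genes 5.75% were called. The median log2 fold change of the 6 was 0.74 and that of all genes -0.02. CLEC7A ran from 21.4 to 218.8 CPM (median 58.6), higher in 23 of 24 animals, with a log2 fold change of 1.13 (SE 0.10, adjusted p = 3.88e-09, edgeR). CLEC4D ran from 0.290 to 34.5 CPM (median 1.32) against 0 to 20.3 CPM before (median 0.677). It was higher in 18 of 24 animals, and its log2 fold change was 1.33 (SE 0.32, adjusted p = 0.00124, edgeR). The controls include those on which CLEC4D was chosen, so this p is not independent of that choice. The groups overlapped almost wholly, since 1 animal alone lay above every control. CLEC4A ran from 7.04 to 53.3 CPM (median 19.7) against 2.98 to 51.5 CPM (median 10.7), higher in 20 of 24 animals, with a log2 fold change of 0.82 (SE 0.15, adjusted p = 7.54e-05). For CLEC4E, 0.826 to 32.1 CPM (median 4.29) stood against 0.476 to 15.5 CPM (median 2.28), with 17 of 24 animals higher and a log2 fold change of 0.67 (SE 0.27, adjusted p = 0.0453). That call was lost without the 2 unscheduled draws of this window (adjusted p = 0.0593) and without Day 90 as well (adjusted p = 0.125). CLEC12A, the uric acid crystal receptor, had a log2 fold change of 0.58 (SE 0.10, adjusted p = 3.67e-05), 1.498-fold and so just short of the call, and was higher in 21 of 24 animals. CLEC5A did not pass (-0.05, SE 0.17). In the 4 HD animals whose control and medium samples were of the same library series (C), 5 of 6 were called, as were 8.59% of all genes in that fit: CLEC4D 2.44 (SE 0.51), CLEC4A 1.64 (SE 0.31), CLEC4E 1.70 (SE 0.43), CLEC7A 1.43 (SE 0.18) and CLEC12A 0.82 (SE 0.22).

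The 2 doses were compared by the difference of their changes from control. Over Day 30 to 90 the change of CLEC4D, CLEC4E and CLEC4A was larger in HD than in LD animals, with 12 animals in each. A draw after Day 90 existed for 12 of these LD animals and for 2 of these HD animals. Dose and nearness to an animal's last draw therefore cannot be told apart in this window. CLEC4D in LD animals went from 0 to 20.3 CPM before irradiation (median 0.561) to 0.331 to 13.7 CPM (median 0.841), higher in 7 of 12. In HD animals it went from 0.0835 to 4.77 CPM (median 0.677) to 0.290 to 34.5 CPM (median 3.89), higher in 11 of 12, with 4 animals above every HD control. The difference in log2 fold change was 1.98 (SE 0.53, adjusted p = 0.0202, edgeR); without B1504 it was 1.79 (adjusted p = 0.0540) and no longer passed. CLEC4E in LD animals had a median of 3.73 CPM before and 3.25 CPM after (0.826 to 18.9), higher in 7 of 12. In HD animals the CLEC4E median was 2.12 CPM before and 7.73 CPM after (1.59 to 32.1), higher in 10 of 12. Its difference was 1.68 (SE 0.44, adjusted p = 0.0185), and 1.48 to 1.86 with each animal left out. CLEC4A had an LD median of 15.8 CPM before and 17.9 CPM after, higher in 8 of 12 animals, and an HD median of 8.75 CPM before and 24.3 CPM after, higher in 12 of 12, with 9 animals above every HD control. Its difference was 1.02 (SE 0.23, adjusted p = 0.00797). CLEC5A (0.67, SE 0.31, adjusted p = 0.193), CLEC12A (0.30) and CLEC7A (0.27) did not pass; of all genes tested, 3.24% did.

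**Figure D3:**
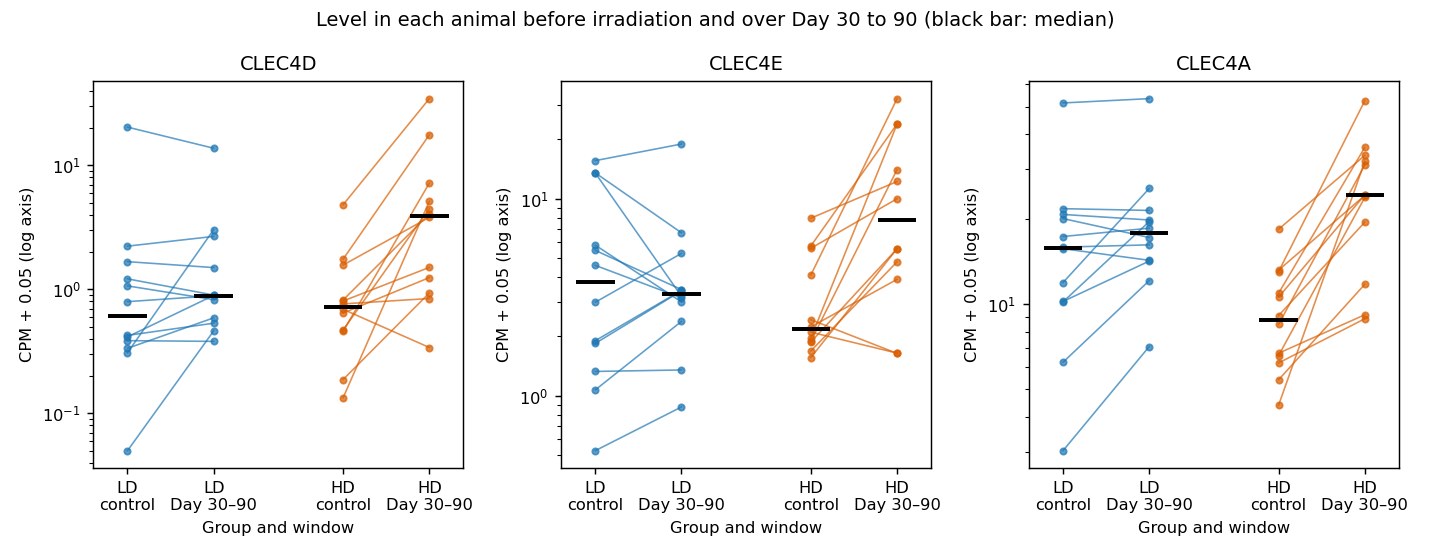
Level of receptors in each animal (CPM + 0.05, log axis) before irradiation and over Day 30 to 90, for the 12 LD and the 12 HD animals with a control; lines join an animal's 2 values and black bars are medians. In HD animals 11 of 12 lie above their own control for CLEC4D and 12 of 12 for CLEC4A, against 7 and 8 of 12 in LD animals.

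By day the levels are given with no test of the doses. CLEC4D on Day 60 ran from 0 to 12.9 CPM in LD animals (median 0.679) and from 0.144 to 25.3 CPM in HD animals (median 3.86). On Day 30 both doses had a median near 1 CPM (1.00 and 0.924), and on Day 40 the medians were 0.534 and 0.994 CPM. CLEC4E had medians of 1.53 CPM (LD) and 7.61 CPM (HD) on Day 60, and CLEC4A 12.6 and 33.2 CPM. The ranges of the doses overlapped on each of these days. The dose differences of the 3 genes passed as well with Day 30, 40 and 60 alone (2.05, 1.85 and 1.12, in the order CLEC4D, CLEC4E, CLEC4A) and with controls of series A alone (1.95, 1.62 and 0.89).

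Neutrophil genes moved with dose in the same window. Of all genes tested 3.24% passed for the dose difference, 381 with a higher and 64 with a lower change in HD animals. Of 16 neutrophil markers tested, 13 had a larger change in HD animals (median difference 0.97), as did 8 of 11 markers of immature neutrophils (median 1.58), which include CAMP, an antimicrobial granule protein (1.21, SE 0.15). The summed level of the 17 neutrophil markers in the table ran from 1773 to 16330 CPM (median 5859) in LD controls and from 1691 to 11700 CPM (median 4868) over Day 30 to 90. In HD animals it ran from 2785 to 7967 CPM (median 4503) and then from 4411 to 9900 CPM (median 7619). Of 14 monocyte markers 3 and of 13 glucocorticoid response genes 4 had a larger change in HD animals. TSC22D3, a gene induced by glucocorticoids such as dexamethasone, was among the latter (0.61, SE 0.15, adjusted p = 0.0145, edgeR). No neutrophil marker in the table was at 0 in every animal. The part of neutrophil number or of dexamethasone in the dose difference of the receptors was not tested.

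Over Day 3 to 21 no difference between the doses passed for the 6 receptors: CLEC4D had a difference of 0.48 (SE 0.62), and 0 of 13751 genes (0.0%) passed in edgeR and 0 in DESeq2, with 5.53% of genes at an unadjusted p under 0.05. For the difference between the sexes, 0 genes passed over Day 3 to 21 (0.0%; 0.894% at an unadjusted p under 0.05), and over Day 30 to 90 again 0 (0.0%; 3.65% at an unadjusted p under 0.05), with 0 by DESeq2 in both. The difference of CLEC4D between the sexes over Day 30 to 90 was -1.29 (SE 0.60, adjusted p = 0.999).

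After Day 90, CLEC4D, CLEC4E, CLEC7A, CLEC12A and CLEC4A were each above the own control in at least 13 of 14 animals, CLEC6A in 11 and CLEC5A in 9; CLEC4D was chosen for this contrast, so the values are given with no test. In the 14 animals with both draws, CLEC4D ran from 0 to 20.3 CPM before irradiation (median 0.567) and from 3.13 to 40.1 CPM after Day 90 (median 14.1). It was higher in 13 of 14 animals, all but B1504, and 5 lay above every control. The median ratio of an animal's late to control level was 13.4 over the 13 animals with a control count above 0; B1005, with a control count of 0, was at 20.5 CPM after Day 90. CLEC4E ran from 0.476 to 15.5 CPM (median 2.65) and then from 4.53 to 48.9 CPM (median 19.9), higher in 13 of 14, with 8 above every control. CLEC4A went from a median of 13.8 to 44.2 CPM (22.6 to 121.8), also higher in 13 of 14. CLEC7A went from a median of 22.99 to 66.2 CPM, and CLEC12A from 7.99 to 50.9 CPM before to 16.1 to 110.4 CPM, higher in 14 of 14 animals. CLEC5A overlapped most, at 0.746 to 5.87 CPM before and 0.487 to 23.9 CPM after Day 90, with 9 of 14 animals higher. The log2 fold changes were 3.88 (SE 0.59) for CLEC4D, 2.38 (SE 0.49) for CLEC4E, 1.91 (SE 0.35) for CLEC4A, 1.55 (SE 0.19) for CLEC7A, 1.14 (SE 0.15) for CLEC12A and 0.68 (SE 0.29) for CLEC5A; without B1504 that of CLEC4D was 4.27. The median over the 6 was 1.73 and that over all genes -0.13. By the call used above 5 of the 6 passed, in a contrast in which 32.5% of all genes did, and nothing is read from that count.

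Since most controls were of series A, the late values were also set against Day 30 within series C, in 16 animals. There the log2 fold changes were 3.28 (SE 0.55) for CLEC4D, 2.72 (SE 0.41) for CLEC4E, 1.73 (SE 0.32) for CLEC4A, 1.197 (SE 0.24) for CLEC5A, 0.80 (SE 0.19) for CLEC7A and 0.78 (SE 0.15) for CLEC12A. All 6 passed the call there, as did 24.9% of all genes. These values are again a description, and nothing is read from that count. Against the own control, CLEC4D stood at 3.89 (SE 0.62) in 12 animals of Day 120 and at 3.83 (SE 0.46) in 9 animals of Day 150. For the 6 animals left from Day 180 on, it was 2.31 (SE 0.36) at Day 180, 3.04 (SE 0.48) at Day 210, 2.74 (SE 1.27) at Day 240 and 3.99 (SE 0.92) at Day 270. The animals of the later days are those still followed then.

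High CLEC4D levels were found in most late animals, in some of them over consecutive draws, and were not always held to the next draw. A level above 10 CPM was seen in 1 of 24 controls (B1504), 1 early sample, 10 of 95 medium samples (6 animals) and 18 of 53 late samples (12 animals). B2507, an HD animal without a control, had 0.144 CPM on Day 60, 5.41 CPM on Day 90 and 181.3 CPM on Day 120, the highest CLEC4D level of all samples. CLEC4E in that Day 120 sample was at 148.1 CPM, CLEC4A at 259.8 CPM, likewise the highest of all samples, and the summed neutrophil markers were at 23070 CPM. B1503, an LD female followed to Day 270, had 0.165 CPM on Day 90, then 40.7 CPM (Day 120), 26.4 CPM (Day 150), 3.88 CPM (Day 180), 5.81 CPM (Day 210), 74.6 CPM (Day 240) and 99.9 CPM (Day 270). CLEC4E went along with it in that animal, from 5.79 CPM on Day 90 to 77.5 CPM on Day 120, 6.50 CPM on Day 180 and 74.4 CPM on Day 270, whereas CLEC7A was at 23.62 and 45.97 CPM on Day 120 and 270. B2502, an HD female, had 5.64 CPM on Day 210, 40.5 CPM on Day 240 and 55.6 CPM on Day 270. The highest level on a scheduled day before Day 90 was that of B2003, an HD male, with 12.02 CPM on Day 30, 65.99 CPM on Day 40 and 25.3 CPM on Day 60. At Day 240 the 4 animals other than B1503 and B2502 were at 0.142 to 1.42 CPM. These animals were picked for their levels, and no test was made on them.

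The last draw of 8 animals that left the study between scheduled days was compared with the scheduled draw before it. CLEC4D was higher in 4 and lower in 4. It went from 5.10 to 68.4 CPM in B2004 (Day 60 to 71), from 5.98 to 43.2 CPM in B1001 (Day 120 to 127), from 4.48 to 40.1 CPM in B2504 (Day 90 to 94) and from 1.295 to 4.38 CPM in B2506 (Day 120 to 129). It went from 23.4 to 2.53 CPM in B1506 (Day 150 to 172), from 24.7 to 5.75 CPM in B1504 (Day 90 to 102), from 11.9 to 4.46 CPM in B1002 (Day 150 to 160) and from 7.28 to 5.21 CPM in B2501 (Day 60 to 77). The 4 animals with a higher last level had the 4 lowest levels in the draw before. CLEC4E was likewise higher in the same 4 and lower in the other 4, and CLEC7A was higher in 2 and lower in 6. The log2 fold change of CLEC4D was 0.57 (SE 0.79), and 0 of 13751 genes (0.0%) were called in edgeR and 0 in DESeq2, with 1.8% at an unadjusted p under 0.05.

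**Figure D4:**
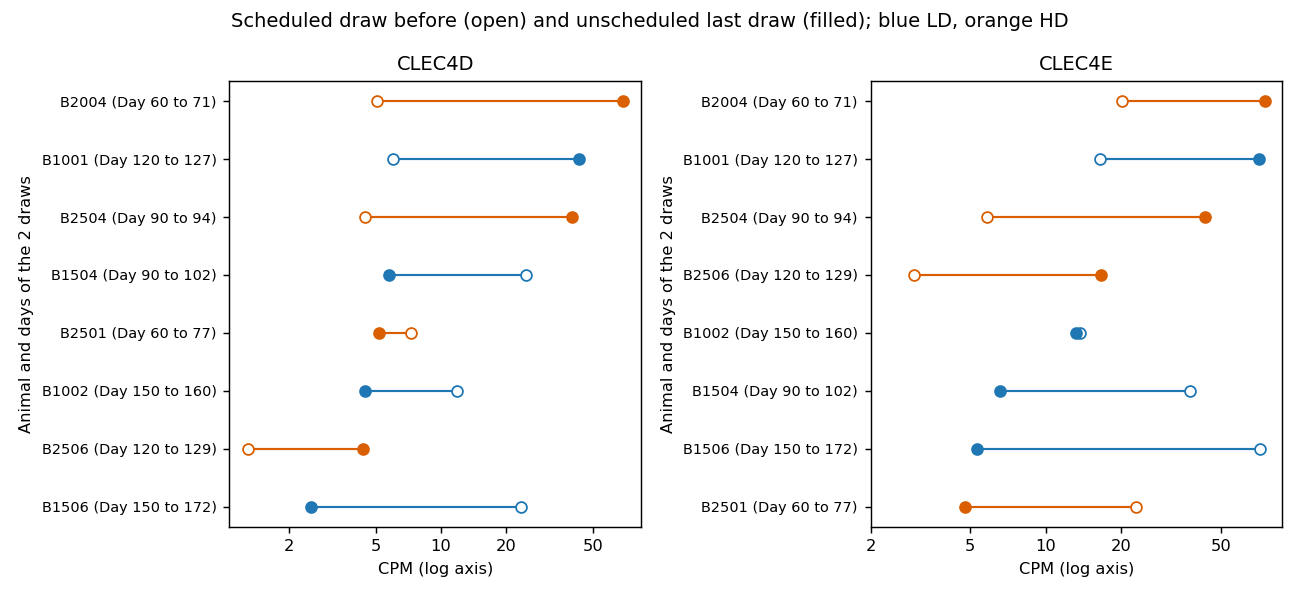
Level (CPM, log axis) in the scheduled draw before (open) and the unscheduled last draw (filled) of 8 animals, blue for LD and orange for HD. CLEC4D rises to 68.4 CPM in B2004 and drops from 23.4 to 2.53 CPM in B1506, and the 8 animals split evenly.

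Among LD animals, those followed to Day 270 (5) and those that ended earlier (7) were compared between animals, at Day 60 and 90 and at Day 120. CLEC4D at Day 60 and 90 ran from 0.294 to 5.05 CPM (median 0.595) in the former and from 0.0667 to 19.4 CPM (median 0.960) in the latter, a difference of -1.24 (SE 1.11) that became 0.72 without B1504. At Day 120, with 11 animals, it was -0.00 (SE 0.69). None of the 6 receptors passed in either test, and edgeR called 0 genes in both (0.0% and 0.0%; 1.64% and 1.22% at an unadjusted p under 0.05), while DESeq2 called 1 and 0.

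Likeness was measured by Pearson's r of log2 CPM over all samples, which share animals and libraries, so no test is given. The 8 genes most like CLEC4D were FGD4 (0.856), an exchange factor for the small GTPase CDC42, GCA (0.849), the granule calcium-binding protein grancalcin, PPP1R3B (0.844), a glycogen-targeting phosphatase subunit, KLHL2 (0.844), ATP13A3 (0.837), NECAP1 (0.831), an endocytosis protein, PLAUR (0.829), the urokinase receptor, and CLEC4A (0.827). CLEC4E was the ninth (0.823). CLEC4E itself was most like FCAR, the IgA receptor of myeloid cells (0.887), ALOX5AP, a protein of leukotriene synthesis (0.873), and NFIL3, a transcription factor (0.868). CLEC4A was most like ATP13A3 (0.874), FGD4 (0.869) and DHRS7 (0.857). The other 3 had weaker partners: CLEC7A had FGL2 (0.698), QKI (0.684) and EREG (0.671), CLEC12A had PPP1R12A (0.587), PARP8 (0.563) and CD48 (0.558), and CLEC5A had CD163 (0.547), HRH2 (0.525) and LOC712405 (0.518). CLEC4D and CLEC7A had an r of 0.416.

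**Figure D5:**
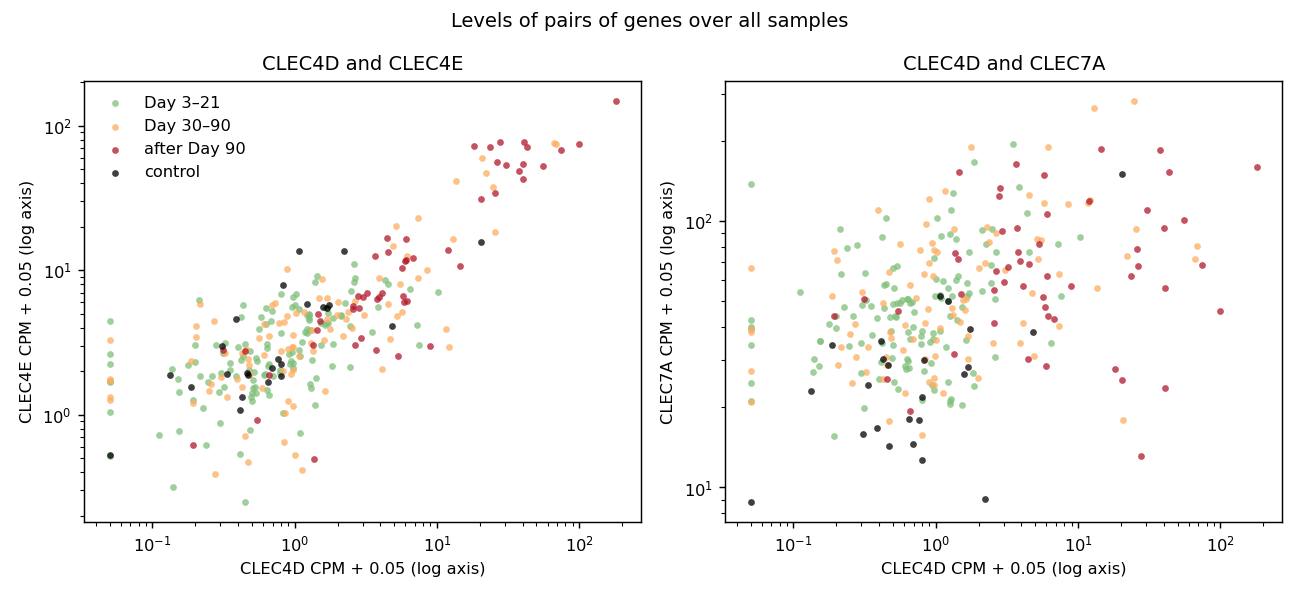
Level of CLEC4D against that of other receptors in each sample (CPM + 0.05, both axes log), coloured by window. CLEC4D and CLEC4E have an r of 0.747 in control, 0.58 in early, 0.767 in medium and 0.913 in late samples; CLEC4D and CLEC7A have 0.198 in late samples.

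The likeness of CLEC4D and CLEC4E was present in every window, with an r of 0.747 over 24 control samples, 0.58 over the early samples, 0.767 over 95 medium and 0.913 over 53 late samples. CLEC4D and CLEC4A had 0.698, 0.516, 0.791 and 0.924. CLEC4D and CLEC7A had 0.596, 0.326, 0.45 and 0.198. Within the chromosome 11 group, NECAP1 (chr11:11419365-11435481) and C3AR1 (chr11:11457209-11462824), the receptor for complement C3a, lie beyond CLEC4A. C3AR1 rose by 1.02 early, 1.24 over Day 30 to 90 and 2.51 after Day 90 on the log2 scale (adjusted p = 2.16e-10, 7.84e-08 and 1.36e-06, edgeR). NECAP1 rose after Day 90 (1.01, adjusted p = 3.88e-05), and FOXJ2, the next gene, did not pass in any window (0.17 after Day 90, adjusted p = 0.151). These 3 neighbours were named after their values were seen.

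Of 23 genes of the adaptors and kinases that act below the receptors, 0 were called over Day 3 to 21, 1 rose over Day 30 to 90 and 7 rose after Day 90. Of all genes 7.53%, 5.75% and 32.5% were called in these windows in either direction, which the share of the list did not exceed. After Day 90, however, 1919 of 13751 genes were called higher and 2548 lower. By higher calls alone, the share of the list was above that of all genes there, and the list was not tested as a set. FCER1G, the adaptor of CLEC4D, CLEC4E and CLEC6A, had log2 fold changes of 0.52 (1.44-fold, below the call), 0.78 (SE 0.09, adjusted p = 1.35e-07, edgeR) and 1.13 (SE 0.15, adjusted p = 1.38e-05). Its median level went from 56.9 CPM in controls to 79.2 CPM early and 95.97 CPM over Day 30 to 90. TYROBP, the adaptor of CLEC5A, had -0.03, 0.43 and 1.03, of which the last was called. CARD9 (0.62) and the kinase FGR (0.95) rose after Day 90. SYK had -0.38, -0.11 and 0.30 and PTPN6, the phosphatase of the inhibitory receptors, -0.26, -0.13 and 0.10, with no call in any window. For the dose difference over Day 30 to 90, 0 of these 23 genes were called, and TYROBP had 0.58 (1.496-fold, adjusted p = 0.0187).

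Among 13 tested genes of the pathway's output, 1 rose and 1 fell early, 1 rose over Day 30 to 90, and 5 rose and 2 fell after Day 90, where all genes were called at 7.53%, 5.75% and 32.5%; the single gene over Day 30 to 90 is near that background. Early, PYCARD, an inflammasome adaptor, rose (0.63) and EGR3, an immediate early factor, fell (-0.70). CXCL8, the neutrophil chemokine, rose over Day 30 to 90 (0.66) and after Day 90 (1.43), from a control median of 8.56 CPM to 14.3 and 31.2 CPM. After Day 90 PTGS2, the inducible cyclooxygenase, rose (1.71) and IL6 fell (-0.75). Of 22 other C-type lectin genes, 4 rose and 2 fell early, 2 rose over Day 30 to 90, and 8 rose and 3 fell after Day 90, against the same shares of all genes; 2 of 22 is near the 5.75% of Day 30 to 90. CLEC1B, the podoplanin receptor of platelets, rose early (0.70), and the B cell lectins CLEC17A and CD72 fell early (-1.02 and -0.95) and after Day 90 (-1.92 and -2.14). CLEC1A rose over Day 30 to 90 (0.90), and THBD, thrombomodulin, rose over Day 30 to 90 (0.79) and after Day 90 (1.86). The dose difference of THBD passed as well (0.66).

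Markers of blood cell types moved in the same windows as the receptors. After Day 90, 32.5% of all genes were called, 1919 higher and 2548 lower. Of 16 neutrophil markers 14 were then called higher (median log2 fold change 1.38), among them CSF3R (0.90) and TNFRSF10C (0.79). So were 10 of 11 immature neutrophil markers (1.64), with CAMP at 1.64 and MMP9, gelatinase B, at 2.25. The summed neutrophil level ran from 1773 to 16330 CPM in 24 controls (median 5122) and from 6854 to 23070 CPM in 16 late animals (median 10620). Of 14 monocyte markers 7 rose and 1 fell (0.58), with sums of 1520 to 6657 CPM (median 2762) in controls and 3561 to 8106 CPM (median 5524) late. All 11 B cell markers fell (-1.94; CD79A -2.02 and MS4A1 -1.67), as did 9 of 11 T cell markers (-0.92; CD3E -0.59 and TCF7 -1.198) and 1 of 8 NK cell markers. Of the eosinophil markers 4 of 6 rose (ADGRE1 1.36, ALOX15 0.98), of the platelet markers 8 of 9 (PPBP 1.12), of the dendritic cell markers 1 of 7 with 4 lower (CD1C -1.23, TCF4 -1.33), of the basophil and mast cell markers 1 of 5 with 3 lower (IL1RL1 3.86, with GATA2 at -0.53 not called) and of the erythroid markers 2 of 11 with 1 lower. Called in either direction, NK cell and erythroid markers were not above the share of all genes. Glucocorticoid response genes rose in 7 of 13 (0.99; TXNIP 0.99), with a summed level of 2784 to 9106 CPM in controls and 3502 to 43700 CPM late.

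Over Day 30 to 90, 5.75% of all genes were called, 616 higher and 175 lower. The markers called higher were 5 of 16 for neutrophils, 8 of 11 for immature neutrophils, 4 of 14 for monocytes and 4 of 6 for eosinophils. So were 8 of 11 for erythroid cells and 1 of 13 for the glucocorticoid response, and 5 of 11 B cell markers were lower. The single glucocorticoid gene is near that background. Over Day 3 to 21, when CLEC7A was the receptor that was called, along with 7.53% of all genes, 4 of 14 monocyte markers, 11 of 11 erythroid markers (median 1.64) and 5 of 9 platelet markers were higher, all 11 B cell markers were lower, and of 16 neutrophil markers 1 was higher and 1 lower. The part of these cell types in the levels of the receptors was not tested.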

How the data were processed

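RNA of whole blood from 28 macaques was sequenced after removal of ribosomal RNA. The authors trimmed reads with cutadapt 2.10, aligned them to Mmul_10 with STAR 2.7.6a and made the deposited counts per gene with Subread 2.0.1; the strand setting of the counting is not given in the sources used here. The second deposited table holds normalized log2 values and served as an alternative. For normalization the paper describes removal of low counts, upper quartile scaling and conditional quantile normalization, which also corrects for GC content.

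Samples were grouped by animal, day and dose from the labels. Genes with at least 3 counts in 80% of the samples were kept (13751 of 21070). Draws of 1 animal within a window are not replicates and were summed. edgeR 4.0.16 (R 4.3.3, upper quartile scaling, quasi-likelihood test, animal as block, as the study used each animal as its own control) compared each window or day with the own control, and the interaction with dose or sex. P-values were adjusted by Benjamini-Hochberg over all tested genes, and a gene was called at an adjusted p of at most 0.05 and at least 1.5-fold. CPM was counts over the sample's effective library size (its total count after scaling), not over the raw total. The pairing comes from the animal names in the labels. Deviations from the group mean correlated between control and later samples of the same animal with an r of 0.291 to 0.746 early, -0.0644 to 0.824 (median 0.451) over Day 30 to 90 and -0.0813 to 0.595 (median 0.317) after Day 90, against a median of -0.0241 between animals early. No 2 libraries were identical.

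Alternatives were TMM scaling, DESeq2 1.42.0, no filter, no block, limma 3.58.1 on the deposited log2 values, the library series as a term, a single series, and animals left out. The SE of edgeR was taken as the size of the log2 fold change over the square root of the test's F statistic. SEs cover the spread between animals (of the change, in blocked fits) and the noise of counting only. On counts simulated from the 24 early animals, edgeR and DESeq2 recovered 200 of 200 genes changed 3-fold among 13751, with 1 unchanged gene called by each. On the 14 late animals they recovered 200 of 200 as well, with 13 and 17 unchanged genes called. The simulated counts took gene means and library sizes from the data, but a fixed dispersion for all genes and an equal change in every animal. Recovery there says nothing on genes whose change varied between animals, as that of CLEC4D did.

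The 7 genes, the lists (adaptors and kinases, pathway output, other C-type lectins and 12 lists of cell types and glucocorticoid response) and the tests were chosen with earlier results of these data known. Named were the 7 genes and FCER1G, TYROBP, SYK, CARD9 and PTPN6, the 3 genes with the largest called change per list and window of the first 3 lists, the genes with the highest r, and the 2 genes with the highest mean CPM in each cell type list with a late median of at least 1.5-fold. A further gene that this rule names is not reported here. Promoters were read from the Mmul_10 RefSeq genome. Figures were drawn with Matplotlib 3.10.9.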

Additional observations from a re-analysis of the deposited data

Results flagged for a closer look

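Between the doses, the change over Day 30 to 90 differed for CLEC4D (1.98 on the log2 scale, HD minus LD), CLEC4E (1.68) and CLEC4A (1.02) by the test of the difference itself in 24 animals. Without B1504 the value of CLEC4D was 1.79 (adjusted p = 0.0540, edgeR) and did not pass.

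On days with 4 to 10 samples, single samples stood far from the rest in 7 of 35 groups of day and gene; chance gives about 1 in 20 for independent, normally distributed values. These groups hold the same few animals over several genes and days, so nothing is read from their number. CLEC6A on Day 180 was at 2.13 CPM in B1004, against 0.294 to 0.698 CPM in the other 5 animals, and on Day 210 at 0.370 CPM in B1003, against 0 in the others. CLEC7A in B1502 was at 186 CPM on Day 210 (others 19.4 to 65.03 CPM) and at 152 CPM on Day 240 (others 25.4 to 68.4 CPM). CLEC12A on Day 210 was at 68.98 CPM in B1004 (others 6.26 to 25.0 CPM). On Day 240, B1503 had CLEC5A at 5.13 CPM (others 1.58 to 2.84 CPM) and CLEC4A at 251 CPM (others 11.6 to 92.8 CPM).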

How the results depend on the processing

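Of the counts of receptors called, all but 1 stayed within 1.5 times the reported count under the alternatives run. With no filter on low counts, 2 receptors (CLEC6A and CLEC7A) rather than 1 were called over Day 3 to 21. That setting called 1495 of 20550 genes. Among values of single receptors, 640 kept direction and call, 15 gained the call, 5 lost it and 48 changed sign, all of the latter on values that were not called. Without the animal as a replicate block, 1 receptor was called early, 3 over Day 30 to 90 (CLEC4E lost, adjusted p = 0.0799, edgeR) and 5 after Day 90. Early, that setting called 984 of 13751 genes, and nothing is read from these counts of receptors. CLEC4A in the last draw then had a log2 fold change of 0.0641. CLEC4E over Day 30 to 90 was also lost on the deposited log2 values (0.40, adjusted p = 0.186, limma). CLEC12A over Day 30 to 90 was called with TMM (0.61), DESeq2 (0.63), no filter (0.59), limma (0.60) and a single library series (0.82). After Day 90, CLEC5A came to the call with TMM, DESeq2 and no filter, for 6 receptors. In the main fit of that window 32.5% of all genes were called, and nothing is read from the 6. On the log2 scale, CLEC4D early was 0.00195 with TMM, 0.25 with DESeq2, 0.0071 with a single series and 0.19 without B1504. CLEC5A over Day 30 to 90 was 0.10 with a single series and 0.33 with the series as a term. Between animals followed to Day 270 and the rest, CLEC12A at Day 60 and 90 was -0.0212 with TMM, -0.0335 with DESeq2 and -0.0255 with no filter, and CLEC4D at Day 120 was 0.00138 with TMM and 0.00226 with no filter. The cause of these shifts was not tested. With each animal left out, the ranges that crossed 0 were, in the last draw, CLEC4E -0.22 to 0.79, CLEC12A -0.11 to 0.26 and CLEC4A -0.31 to 0.27. For follow-up at Day 60 and 90 they were CLEC4D -2.48 to 0.72, CLEC4E -1.24 to 0.27, CLEC5A -0.54 to 0.13, CLEC12A -0.38 to 0.21 and CLEC4A -0.49 to 0.43. At Day 120 they were CLEC4D -0.70 to 0.46, CLEC4E -0.41 to 0.54, CLEC7A -0.90 to 0.29, CLEC12A -0.53 to 0.0525 and CLEC4A -0.39 to 0.40. The values without B1504, the single days without Day 90 and the controls of series A alone were chosen after seeing the data. A single library series after Day 90 was not run, since 1 animal alone had both draws in it. Depth limits CLEC6A, at a few counts a sample, and CLEC4D in controls.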
